A study of Homo sapiens with 9 samples.

Results

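The AP-1 transcription factor genes measured here were FOS, FOSB, FOSL1, FOSL2, JUN, JUNB, JUND, ATF3, MAFF and MAFK. They were chosen by gene name, with earlier results of these data known, as 10 of the 60966 genes in the transcript tables. RNA was sequenced from H1299, an established line of human non-small cell lung cancer, at 48 h after delivery of a control siRNA or of 1 of 2 siRNAs against FIBP, the gene of FGF1 intracellular binding protein. The groups were Scramble (control genotype), Si-FIBP#1 and Si-FIBP#2 (both labelled FIBP depleted), with 3 samples each. The study's methods say in general terms that experiments were repeated independently, but no label ties the samples of a group to separate cultures, so the p-values measure the spread between these samples, which may be technical. The depletion was transient, by siRNA, in a single line, and no group was left without transfection.

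AP-1 is a family of dimeric transcription factors built from basic leucine zipper proteins. Jun proteins can pair with themselves or with Fos and ATF proteins, whereas Fos proteins need a Jun partner to bind DNA. The dimers read the TGACTCA element or, with ATF partners, the related TGACGTCA element. The small Maf proteins MAFF and MAFK share the zipper fold but lack a transactivation domain, and act through partners such as the NFE2L and BACH proteins. FOS, FOSB, JUNB and ATF3 are classical immediate early genes, which growth factors and stress switch on within minutes through MAP kinases, SRF and its partners, and CREB-like proteins. FOSL1, which encodes FRA-1, is turned on later and is well known for its high level in invasive epithelial cancers.

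The promoters of the AP-1 genes were searched, on both strands, for TGACTCA, TGACGTCA, the STAT element TTCNNNGAA and the CArG box bound by SRF. The variant TGACATCA was added after the windows had been seen. RefSeq promoter windows (GRCh38.p14, 250 bases before to 50 bases after the start) were given for 8 of the 10 genes, with FOSL1 and MAFK not among them. The 4 windows below are shown since FOS and MAFF fell most with Si-FIBP#1, FOSL2 rose, and JUN moved in opposite directions with the 2 siRNAs. Each is printed 5′ to 3′ up to 30 bases after the start, with motif matches in capitals.

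FOS, chr14:75278578-75278857, plus strand: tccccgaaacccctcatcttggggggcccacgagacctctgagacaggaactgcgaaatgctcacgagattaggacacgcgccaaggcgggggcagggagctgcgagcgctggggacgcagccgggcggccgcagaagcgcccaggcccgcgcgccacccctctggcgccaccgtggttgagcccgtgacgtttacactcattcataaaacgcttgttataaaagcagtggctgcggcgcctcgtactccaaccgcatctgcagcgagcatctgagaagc
MAFF, chr22:38201744-38202023, plus strand: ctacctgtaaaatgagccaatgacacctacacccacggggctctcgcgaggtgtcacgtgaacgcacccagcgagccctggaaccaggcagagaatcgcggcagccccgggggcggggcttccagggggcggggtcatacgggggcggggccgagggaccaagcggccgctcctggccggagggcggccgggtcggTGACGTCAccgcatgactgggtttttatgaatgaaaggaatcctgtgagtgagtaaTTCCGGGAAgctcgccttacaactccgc
JUN, chr1:58784018-58784297, minus strand: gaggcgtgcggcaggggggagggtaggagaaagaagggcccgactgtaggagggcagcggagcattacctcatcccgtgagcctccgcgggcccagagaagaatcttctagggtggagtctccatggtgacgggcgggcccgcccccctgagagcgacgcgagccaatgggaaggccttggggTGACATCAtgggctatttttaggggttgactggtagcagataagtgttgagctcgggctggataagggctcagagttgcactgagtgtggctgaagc
FOSL2, chr2:28392608-28392887, plus strand: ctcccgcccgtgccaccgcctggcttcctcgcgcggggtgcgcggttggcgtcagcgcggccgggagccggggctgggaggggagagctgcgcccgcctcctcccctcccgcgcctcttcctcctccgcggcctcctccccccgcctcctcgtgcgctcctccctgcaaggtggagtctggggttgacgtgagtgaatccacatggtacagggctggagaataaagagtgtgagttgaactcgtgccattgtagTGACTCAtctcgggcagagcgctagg

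The FOSL2 window contained TGACTCA from base 5 after the start, a motif found in 4.95% of the 35116 promoter windows. In JUN, TGACATCA began 67 bases before the start, and in ATF3 123 bases before it, where 2.61% of windows hold this variant. TGACGTCA, found in 1.85% of windows, began 54 bases before the start in MAFF and 200 bases before it in JUND. MAFF also held the STAT element as TTCCGGGAA from base 3 after the start, against 7.66% of windows. The windows of FOS, FOSB and JUNB held no exact match to any of the 5 motifs. No member window held a CArG box, which 1.29% of all windows had. Sites outside the windows were not searched, so the search could not tell whether a gene has a CArG box farther upstream. Stretches that differ from a motif, such as tgacgttt in FOS and tgacgtaa in FOSB, were not counted. ATF3 and MAFF each had a second window without a match. Both genes that fell and genes that rose thus carried matches, and a match is only a stretch of letters in this window.

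FIBP itself averaged 81.9 ± 5.71 FPKM (fragments scaled by transcript length and library size, SD, n = 3) in Scramble, 6.52 ± 1.93 FPKM for Si-FIBP#1 and 7.09 ± 1.15 FPKM for Si-FIBP#2, or 7.96% and 8.66% of Scramble. Replicate 2 of Si-FIBP#2 stood somewhat apart: it lay farthest from the mean of the other two in 48.5% of the genes tested, and no other sample did so within its group in more than 40.5%. Without it, 9, 7 and 4 AP-1 genes were called in the 3 comparisons, the same numbers as with it. The tables hold no counts. From the steps between low values, the depth was estimated at 20150000 to 23800000 fragments per library. Of the markers fixed for the line, the keratins KRT8 and KRT18 and vimentin were present, while KRT19, EPCAM and CDH1 were near 0, with CDH1 at 0 in every sample. The summed FPKM of these 6 genes was 3730 to 3950 in Scramble, 2430 to 2760 for Si-FIBP#1 and 1800 to 2500 for Si-FIBP#2. Most of this sum was vimentin, which averaged 3230, 2310 and 1990 FPKM and is also counted among the AP-1 targets below. Markers of blood cells, endothelium and fibroblasts summed to at most 0.27, 0.23 and 3.01 FPKM in any sample, although the fibroblast sum was higher in every FIBP-depleted sample (0.75 FPKM or more) than in Scramble (0.54 FPKM or less).

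In Scramble cells, AP-1 RNA was dominated by FOSL1 at 277 ± 4.73 FPKM, a level above that of 97.7% of the 14985 genes tested. JUND followed at 59.2 ± 2.45 FPKM and JUNB at 33.6 ± 2.65 FPKM. MAFK (25.8 ± 1.96 FPKM) and JUN (24.4 ± 1.36 FPKM) came next, with ranges that overlapped. FOSL2 at 7.7 FPKM and MAFF at 7.19 FPKM also overlapped, and FOS lay below them at 5.03 ± 0.634 FPKM. ATF3 (3.29 FPKM) and FOSB (2.81 FPKM) were lowest, and their ranges overlapped. FOSL1, JUND and JUNB had the highest sums in all 3 groups, with JUNB and JUN overlapping for Si-FIBP#2. In the FIBP-depleted groups MAFK ranked below JUN, and with Si-FIBP#1 FOS ranked below ATF3, with overlapping ranges. These levels are per length, but a gene's value is the sum over its transcripts, and the second place of JUND rests on an annotated form of only 500 nt, which carried 47.6% of its FPKM in Scramble. Without this form, left out after its values had been seen, JUND was at 31, 36.9 and 32.9 FPKM in Scramble, Si-FIBP#1 and Si-FIBP#2, and its range overlapped that of JUNB in each group. By estimated fragments, JUND had 1178 to 1355 per Scramble library, fewer than JUN (1464 to 1686) and MAFK (1726 to 2103). Longer transcripts give more fragments, and JUN (3257 nt) and the main MAFK form (3380 nt) are longer than the main JUND forms. Fewer fragments thus do not mean less RNA. Per length, JUND without the 500 nt form (29.03 to 32.19 FPKM) stayed above JUN (23.50 to 25.94 FPKM) and MAFK (24.64 to 28.09 FPKM) in Scramble.

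All 10 genes passed the filter of 1 FPKM in at least 3 samples and were tested. They had been chosen with earlier results of these data known. Their counts beside the shares of all genes are thus descriptions, and no set test was run. Compared with Scramble, 9 of the 10 genes changed with Si-FIBP#1 (limma on log2(FPKM + 1), Benjamini-Hochberg adjusted p below 0.05 over all genes), against 47.7% of all genes tested. Of these, 7 fell, where 19.9% of all genes fell, and 2 rose, where 27.8% of all genes rose. With Si-FIBP#2, 7 of the 10 genes changed, against 48.8% of all genes, with 4 lower (17.7% of all genes) and 3 higher (31.1% of all genes). The median log2 fold change of the 10 genes was -0.57 for Si-FIBP#1 and -0.20 for Si-FIBP#2, where that of all genes was 0.073 and 0.111. Without Scramble replicate 2 the median of the 10 genes for Si-FIBP#2 was -0.12. Both comparisons share the Scramble samples. A fold change above 2 was passed by 2 genes with Si-FIBP#1, FOS and MAFF (5.66% of all genes), and without Si-FIBP#1 replicate 1 only by FOS. With a pseudocount of 0.1 in place of 1, FOSB passed it too (-1.13). By limma it was passed by 0 of the 10 genes with Si-FIBP#2 (5.05% of all genes), although 7 had an unadjusted p below 0.05. All samples of the groups were separated for 9 genes with Si-FIBP#1, the exception being JUNB (58.9% of all genes were separated), and for 7 with Si-FIBP#2 (57.3% of all genes). In bulk RNA, fewer cells that express a gene and less of its RNA per cell cannot be told apart.

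Scaling mattered for the small changes. After each sample was divided by its median ratio to the others, the median of all genes moved from 0.111 to 0.009 for Si-FIBP#2, and for Si-FIBP#1 from 0.073 to 0.007. Among all genes called, the share that was higher changed from 58.4% to 48.8% for Si-FIBP#1, and for Si-FIBP#2 from 63.7% to 48.3%. Of the AP-1 genes, 7 were then lower and 0 higher with Si-FIBP#1 (by limma, with the tests of FOSL2 and JUND at adjusted p = 0.0601 and 0.0781), and 5 were lower and 1 higher with Si-FIBP#2. The falls of FOS, FOSL1, MAFF and MAFK thus did not depend on this choice, while rises of 0.3 or less on the log2 scale did.

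**Figure D1:**
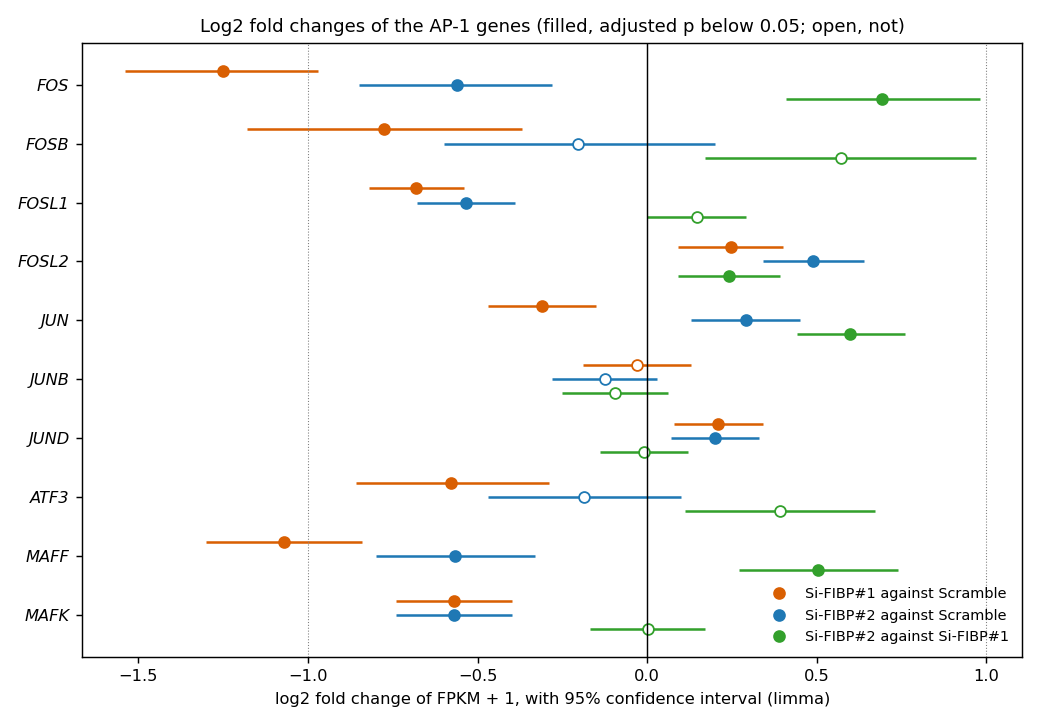
Log2 fold change of FPKM + 1 for each AP-1 gene (points) with its unadjusted 95% confidence interval (lines), for each siRNA relative to Scramble and for Si-FIBP#2 relative to Si-FIBP#1. Filled points passed an adjusted p of 0.05 and dotted lines mark a 2-fold change, which FOS (-1.25) and MAFF (-1.07) passed with Si-FIBP#1.

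FOS encodes c-Fos, the prototype of the family, whose RNA is made in short bursts and lost quickly. It reached 5.54, 4.32 and 5.23 FPKM in Scramble, against 1.38, 1.43 and 1.76 FPKM for Si-FIBP#1 and 2.56, 3.42 and 3.28 FPKM for Si-FIBP#2. The 3 groups did not overlap, with Scramble highest and Si-FIBP#1 lowest. FOS fell by 1.25 on the log2 scale with Si-FIBP#1 (limma, SE 0.13, adjusted p = 4.5e-05) and by 0.56 with Si-FIBP#2 (adjusted p = 0.00509), to 30.3% and 61.4% of its Scramble level. These FPKM values rest on an estimated 178 to 206 fragments per Scramble library and 56 to 61 per Si-FIBP#1 library. Most of the signal, 79.2% to 100% in each sample, came from the transcript ENST00000303562.

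FOSB, whose protein also dimerises with Jun, reached 3.03, 3.06 and 2.34 FPKM in Scramble, against 1.09, 1.33 and 1.24 FPKM for Si-FIBP#1. For Si-FIBP#2 the values were 1.55, 3.23 and 2.32 FPKM, a spread that covered both the lowest and the highest Scramble value. It fell by 0.77 with Si-FIBP#1 (limma, SE 0.18, adjusted p = 0.00571), while the log2 fold change of -0.20 for Si-FIBP#2 (95% confidence interval -0.60 to 0.20) did not pass (adjusted p = 0.375). FOSB (chromosome 19 from 45467995 to 45475179, plus strand, GRCh38) overlaps ERCC1, a DNA repair gene on the other strand. ERCC1 averaged 166 FPKM in Scramble and 201 and 203 FPKM with the siRNAs. The strand setting of the quantification is not given in the sources used here, so reads of the 2 genes may not be fully separated, and the part of this in the FOSB values was not tested.

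FOSL1 carried most of the Fos family RNA. It reached 282.72, 275.26 and 273.95 FPKM in Scramble, against 161.26, 186.26 and 171.28 FPKM for Si-FIBP#1 and 178.63, 204.42 and 191.49 FPKM for Si-FIBP#2. All 6 FIBP-depleted samples were thus far below Scramble, while both siRNA groups overlapped each other. FOSL1 fell by 0.68 with Si-FIBP#1 (limma, SE 0.064, adjusted p = 2.7e-05) and by 0.53 with Si-FIBP#2 (adjusted p = 1.3e-04). Its level was 62.4% and 69.1% of that in Scramble, and still the highest of the 10 genes.

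FOSL1 lies close to the targeted gene. It spans chromosome 11 from 65892049 to 65900573 on the minus strand (GRCh38, GENCODE release 29), and FIBP lies from 65883741 to 65888539 on the same strand, 3509 bases away. The deposited tables hold 2 assembled FOSL1 transcripts, of 4342 and 3847 nt, which carry the same assembled locus number as the assembled FIBP transcripts of 6402 and 6204 nt. The most abundant FOSL1 form, ENST00000312562, went from 190 FPKM in Scramble to 115 and 126 FPKM, and ENST00000531493 went from 43.6 FPKM to 30.6 and 36.8 FPKM. The 4342 nt assembled transcript went from 20.6 FPKM to 8.96 and 10.6 FPKM. With assembled transcripts left out, the fall of FOSL1 was 0.64 and 0.50 on the log2 scale (limma, adjusted p = 4.9e-05 and 2.3e-04). CCDC85B, which lies between both genes (65890112 to 65891635, plus strand) and was looked up after the values had been seen, was higher than Scramble with both siRNAs, at 112 FPKM with each against 84.8 FPKM (log2 fold changes 0.39 and 0.39, limma, adjusted p = 0.0179 and 0.0193).

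FOSL2, which encodes FRA-2, went the other way. It reached 7.75, 8.03 and 7.33 FPKM in Scramble, against 9.67, 9.10 and 9.21 FPKM for Si-FIBP#1 and 11.56, 10.72 and 11.36 FPKM for Si-FIBP#2, without overlap between the groups. With Si-FIBP#2 it rose by 0.49 (limma, SE 0.068, adjusted p = 3.2e-04). The rise of 0.25 with Si-FIBP#1 (adjusted p = 0.014) was lost with median ratio scaling (0.18, adjusted p = 0.0601) and without Scramble replicate 3 (0.22, adjusted p = 0.0547). Its main transcript, the 6713 nt ENST00000264716, averaged 7.27, 7.55 and 9.32 FPKM in Scramble, Si-FIBP#1 and Si-FIBP#2. For this form Si-FIBP#1 (6.60 to 8.09 FPKM) overlapped Scramble (6.70 to 7.57 FPKM), while Si-FIBP#2 (8.57 to 9.80 FPKM) lay above it. With Si-FIBP#1 the minor forms ENST00000379619 and ENST00000436647 went from 0.103 and 0.33 FPKM to 1.17 and 0.6 FPKM on average.

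Within the Fos family the balance changed accordingly. FOSL1 made up 94.7% ± 0.15 of the summed FPKM of the 4 Fos genes in Scramble, 93.5% ± 0.516 for Si-FIBP#1 and 92.0% ± 0.159 for Si-FIBP#2 (SD, n = 3). The share of FOSL2 was 2.63% ± 0.117 in Scramble and 5.06% ± 0.493 and 5.41% ± 0.559 with the siRNAs. The ratio of FOSL1 to FOSL2 went from 36.0 ± 1.59 to 18.6 ± 1.9 and 17.1 ± 1.82, with all 6 FIBP-depleted samples (15.5 to 20.5) below the Scramble samples (34.3 to 37.4). FOSL1 nevertheless remained the main Fos RNA in every sample, at 91.9% or more.

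JUN encodes c-Jun, the strongest activator among the Jun proteins. It reached 25.94, 23.67 and 23.50 FPKM in Scramble, against 18.44, 19.33 and 20.68 FPKM for Si-FIBP#1 and 30.87, 27.86 and 31.37 FPKM for Si-FIBP#2. The siRNA groups thus lay on opposite sides of Scramble, without overlap. JUN fell by 0.31 with Si-FIBP#1 (limma, SE 0.071, adjusted p = 0.00575) and rose by 0.29 with Si-FIBP#2 (adjusted p = 0.00771). The rise with Si-FIBP#2 was 0.18 with median ratio scaling (limma, adjusted p = 0.0684), whereas the fall with Si-FIBP#1 was kept in all 18 alternatives. JUN had 1 transcript in the tables, so a change of isoform could not be seen.

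JUNB, a weaker activator that can oppose c-Jun, reached 35.08, 35.11 and 30.50 FPKM in Scramble, against 32.55, 34.71 and 31.24 FPKM for Si-FIBP#1 and 29.36, 31.06 and 31.54 FPKM for Si-FIBP#2. The 3 groups overlapped. Its log2 fold changes were -0.03 (95% confidence interval -0.19 to 0.13) for Si-FIBP#1 and -0.12 (-0.28 to 0.03) for Si-FIBP#2, and did not pass (limma, adjusted p = 0.76 and 0.172). With median ratio scaling the second was -0.24 and passed (limma, adjusted p = 0.0157). JUNB also has 1 transcript, and it overlaps HOOK2 on the other strand, which averaged 8.05 FPKM in Scramble and 15.1 and 14.4 FPKM with the siRNAs.

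JUND, the Jun gene expressed at a steady level in most cells, reached 60.50, 56.38 and 60.74 FPKM in Scramble, against 70.80, 69.56 and 65.46 FPKM for Si-FIBP#1 and 70.91, 68.81 and 64.61 FPKM for Si-FIBP#2. All 6 FIBP-depleted samples were above Scramble. Without the 500 nt form, Si-FIBP#1 (33.95 to 38.38 FPKM) stayed above Scramble (29.03 to 32.19 FPKM), but Si-FIBP#2 (30.13 to 36.22 FPKM) overlapped it. The log2 fold changes were 0.21 with Si-FIBP#1 (limma, SE 0.056, adjusted p = 0.0126) and 0.20 for Si-FIBP#2 (adjusted p = 0.0156). Both calls were lost with median ratio scaling (0.13 and 0.08, adjusted p = 0.0781 and 0.262), without the assembled transcripts (0.07 and 0.14, adjusted p = 0.512 and 0.208) and without Scramble replicate 2 (0.18 and 0.16, adjusted p = 0.0559 and 0.0676). That with Si-FIBP#2 was also lost without Si-FIBP#2 replicate 1 (0.17, adjusted p = 0.053). The higher JUND sum lay in an annotated form of only 500 nt and in an assembled form, while the 1929 nt annotated transcript ENST00000252818 averaged 11, 9.68 and 8.28 FPKM.

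Within the Jun family, JUN made up 20.8% ± 0.48 of the summed FPKM in Scramble, 16.1% ± 1.31 for Si-FIBP#1 and 23.3% ± 1.41 for Si-FIBP#2 (SD, n = 3), and the 3 groups did not overlap. The Jun family sum was 117, 121 and 129 FPKM on average, while that of the Fos family was 293, 185 and 208 FPKM. The ratio of Fos to Jun RNA therefore went from 2.5 ± 0.0347 in Scramble to 1.53 ± 0.0941 for Si-FIBP#1 and 1.62 ± 0.128 for Si-FIBP#2. Every FIBP-depleted sample (1.42 to 1.74) lay below every Scramble sample (2.46 to 2.52). The Jun sum, the JUN share and the Fos to Jun ratio all include the 500 nt JUND form, so their absolute values depend on it. That form held 47.6%, 46.3% and 51.7% of JUND FPKM in Scramble, Si-FIBP#1 and Si-FIBP#2. Without it JUND was at 31, 36.9 and 32.9 FPKM, on average again no lower with the siRNAs than in Scramble. These shares and ratios are descriptions of RNA levels, were not tested, and give no dimer composition.

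**Figure D2:**
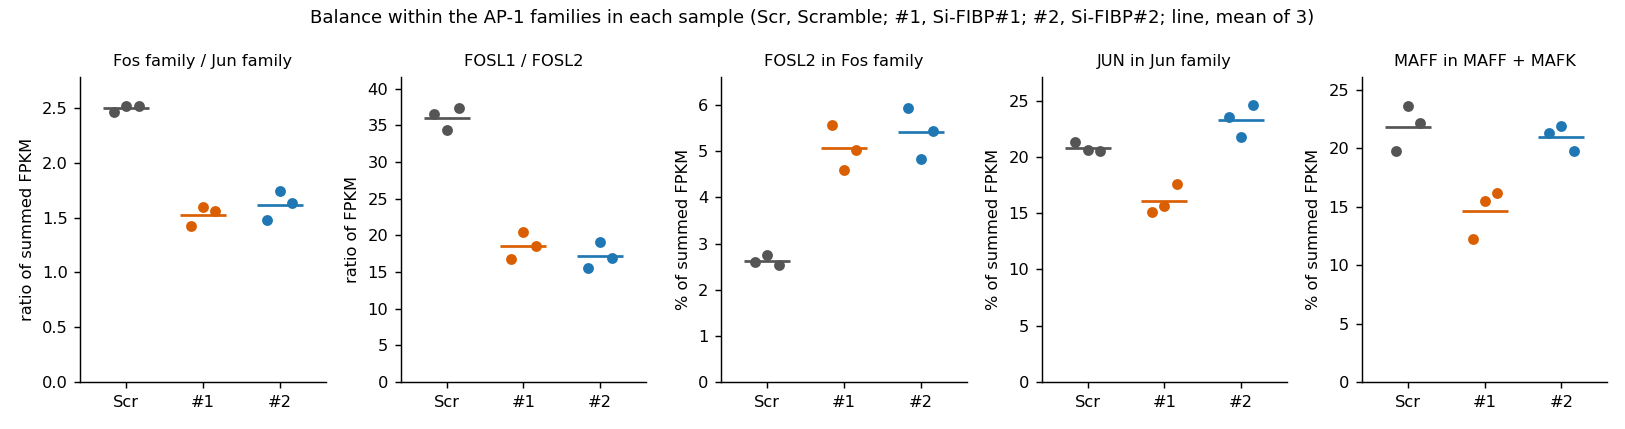
Ratios and shares of FPKM within the AP-1 families in each sample (y axes as ratio or % of summed FPKM, starting at 0; line, mean of 3). The ratio of Fos to Jun RNA and that of FOSL1 to FOSL2 are lower in all 6 FIBP-depleted samples than in Scramble, whereas the JUN share and the MAFF share are lowest with Si-FIBP#1.

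ATF3 encodes a stress-induced repressor of the ATF group, which pairs with Jun proteins. It reached 2.96, 3.85 and 3.05 FPKM in Scramble, against 1.61, 1.89 and 2.10 FPKM for Si-FIBP#1 and 3.17, 2.48 and 2.63 FPKM for Si-FIBP#2. With Si-FIBP#1 it fell by 0.58 (limma, SE 0.13, adjusted p = 0.00433), while with Si-FIBP#2 it overlapped Scramble at -0.19 (95% confidence interval -0.47 to 0.10, adjusted p = 0.249). Only an estimated 46 to 120 fragments per library lie behind these values. A 581 nt transcript, ENST00000613104, took from 0% to 44.4% of the ATF3 sum in different samples.

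Of the small Maf genes, MAFF is the inducible one. It reached 6.92, 7.63 and 7.03 FPKM in Scramble, against 2.49, 3.01 and 3.24 FPKM for Si-FIBP#1 and 4.29, 5.07 and 4.26 FPKM for Si-FIBP#2, in 3 separate ranges. MAFF fell by 1.07 with Si-FIBP#1 (limma, SE 0.10, adjusted p = 3.4e-05) and by 0.57 with Si-FIBP#2 (adjusted p = 0.00157). Without Si-FIBP#1 replicate 1 the first was -0.99, just under 2-fold. PLA2G6, which overlaps MAFF on the other strand, averaged 6.37 FPKM in Scramble and 9.15 and 7.88 FPKM with the siRNAs.

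MAFK reached 28.09, 24.75 and 24.64 FPKM in Scramble, against 17.95, 16.42 and 16.77 FPKM for Si-FIBP#1 and 15.88, 18.12 and 17.21 FPKM for Si-FIBP#2. It fell by 0.57 with each siRNA (limma, SE 0.075, adjusted p = 2.3e-04 for both), to 66% and 66.1% of Scramble. All 6 FIBP-depleted samples were below Scramble, and both siRNA groups overlapped. The summed FPKM of MAFF and MAFK ranged from 31.7 to 35 in Scramble. It ranged from 19.4 to 20.4 for Si-FIBP#1 and from 20.2 to 23.2 for Si-FIBP#2. MAFF made up 21.8%, 14.6% and 21.0% of this sum. The sum leaves out MAFG, another small Maf gene, which was at 14.5, 12.4 and 11.6 FPKM. MAFG changed by -0.22 with Si-FIBP#1 (limma, adjusted p = 0.116) and by -0.30 with Si-FIBP#2 (adjusted p = 0.0387).

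The 2 siRNAs were then compared with each other, to see which AP-1 genes differed between them although FIBP was at a similar level (log2 difference 0.13, 95% confidence interval -0.28 to 0.54, limma, adjusted p = 0.686). Of the 10 genes, 4 were higher with Si-FIBP#2 than with Si-FIBP#1 (FOS, FOSL2, JUN and MAFF), where 15.4% of all genes differed and 9.58% were higher. By limma, 0 of the 10 were lower, where 5.8% of all genes were, and 0 passed a 2-fold change (0.561% of all genes), although 7 had an unadjusted p below 0.05. These changes are of FPKM + 1, and the plain ratio of mean FPKM was 2.03 for FOS and 1.94 for FOSB. Over the alternatives the log2 difference of FOS was 0.97 at most. For 6 genes (FOS, FOSL2, JUN, MAFF, FOSB and ATF3) the 2 groups did not overlap (32.9% of all genes). The median log2 difference was 0.32, against 0.040 for all genes.

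FOS was 0.69 higher with Si-FIBP#2 on the log2 scale (limma, SE 0.13, adjusted p = 0.00725), MAFF 0.50 higher (SE 0.10, adjusted p = 0.0118) and JUN 0.60 higher (SE 0.071, adjusted p = 9.7e-04). For FOS and MAFF this means a smaller fall with Si-FIBP#2, and for JUN a change of direction. The difference of FOSL2 (0.24, adjusted p = 0.0416) lost its call in 13 of 18 alternatives. FOSB (0.57, adjusted p = 0.0591) and ATF3 (0.39, adjusted p = 0.0668) did not pass, but both passed when each sample was scaled to the same sum (limma, adjusted p = 0.047 and 0.0492), and FOSB also without Si-FIBP#2 replicate 1 (0.76, adjusted p = 0.0211). With this scaling, 74.7% of all genes that differed were higher with Si-FIBP#2, against 62.3% in the values as deposited and 47.8% with median ratio scaling. For FOSL1, JUNB, JUND and MAFK the log2 differences were 0.15, -0.10, -0.01 and 0.00 (95% confidence interval of MAFK -0.17 to 0.17). None of these passed.

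Genes around AP-1 were examined in 6 lists, also chosen with earlier results of these data known, so that their counts are descriptions. Their counts are to be read against all genes tested, of which 27.8% rose and 19.9% fell with Si-FIBP#1, 31.1% rose and 17.7% fell with Si-FIBP#2, and whose medians were 0.073 and 0.111. Among 26 other immediate early genes, which respond to the same signals as FOS, 21 were tested. With Si-FIBP#1, 11 fell and 3 rose, and with Si-FIBP#2, 12 fell and 4 rose, with median log2 fold changes of -0.33 and -0.43. The genes that fell were 52.4% and 57.1% of those tested, against 19.9% and 17.7% of all genes, and those that rose 14.3% and 19.0%, against 27.8% and 31.1%. By the mean over both siRNAs, the matricellular genes CCN2 and CCN1 had the largest falls, while with Si-FIBP#1 alone EGR1 fell more than either. CCN2 went from 46.6 ± 2.85 FPKM to 16.2 ± 0.396 and 9.47 ± 1.65 FPKM, or by 1.47 and 2.20 on the log2 scale (limma, adjusted p = 4.8e-06 and 8.2e-07). CCN1 went from 122 FPKM to 54.9 and 38.2 FPKM. KLF2, a Krüppel-like factor, went from 11 FPKM to 3.33 and 4.49 FPKM.

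EGR1, a zinc finger factor that is induced along with FOS, was at 9.35, 9.08 and 8.45 FPKM in Scramble, 1.63, 2.29 and 2.35 FPKM for Si-FIBP#1, and 3.22, 7.55 and 3.89 FPKM for Si-FIBP#2. The 3 groups did not overlap, but replicate 2 of Si-FIBP#2 lay far above the other two. The difference between the siRNAs was 0.87 (limma, adjusted p = 0.0312), and 0.56 without that sample (adjusted p = 0.0201). The call was lost without any sample of Si-FIBP#1 and without Si-FIBP#2 replicate 3 (0.76 to 0.97, limma, adjusted p = 0.0528 to 0.102). CCN2 showed the reverse, being lower with Si-FIBP#2 by 0.73 (limma, adjusted p = 0.00235). The list did not move as one, since genes in it rose too.

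Among 12 regulators that bind the FOS and JUN promoters, 3 rose and 5 fell with each siRNA. The 25.0% that rose lay near the 27.8% and 31.1% of all genes, and the 41.7% that fell stood against 19.9% and 17.7%. SRF, which binds the CArG box of FOS and also belongs to the list above, went from 22.5 ± 1.67 FPKM to 12.9 ± 1.53 and 9.89 ± 0.373 FPKM (log2 fold changes -0.75 and -1.11, limma, adjusted p = 1.2e-04 and 1.2e-05). SRF was lower for Si-FIBP#2 than for Si-FIBP#1 (-0.35, limma, adjusted p = 0.0278), but this call was lost without Si-FIBP#1 replicate 1 or 2 and without Si-FIBP#2 replicate 1 or 3 (-0.38 to -0.26, adjusted p = 0.0522 to 0.0884). STAT3 rose from 17.9 FPKM to 31.3 and 29.4 FPKM (0.78 and 0.69, limma, adjusted p = 6.5e-06 and 1.6e-05). MEF2C, a regulator of the JUN promoter, went from 15.5 FPKM to 9.79 and 11.8 FPKM. Its change with Si-FIBP#2 (-0.39, limma, adjusted p = 0.0351) was lost without any 1 of the Scramble samples and without Si-FIBP#2 replicate 1 or 2, being -0.23 without the latter (adjusted p = 0.0741). The 5 falls in this list with Si-FIBP#2 were 2 to 3 without any 1 Scramble sample and 3 without Si-FIBP#2 replicate 2.

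Of 25 MAP kinase pathway genes, 24 were tested, and 9 rose and 4 fell with Si-FIBP#1, 11 and 4 with Si-FIBP#2, with medians of 0.01 and 0.03, which ran from 0.00 to 0.09 for each siRNA with a sample left out. The share that fell, 16.7% with each, lay near the 19.9% and 17.7% of all genes, and 37.5% and 45.8% rose, against 27.8% and 31.1%. BRAF went from 6.42 to 8.73 and 11.2 FPKM, MAP2K7, a kinase upstream of JNK, from 19.6 to 25.7 and 26.4 FPKM, and MAPK10, a JNK gene, from 1.35 to 2.12 and 2.49 FPKM. The call of MAPK10 with Si-FIBP#1 was lost without Scramble replicate 3 or Si-FIBP#1 replicate 2 (limma, adjusted p = 0.0725 and 0.0648). The 4 falls with Si-FIBP#2 were 1 to 2 without any 1 Scramble sample or without Si-FIBP#2 replicate 1 or 3. With Si-FIBP#1, the 9 rises were 6 without Scramble replicate 3 and without Si-FIBP#1 replicate 2. NRAS and RPS6KA1 differed between the siRNAs, being higher with Si-FIBP#2 by 0.48 and 0.41 (limma, adjusted p = 0.00422 and 0.0105). Of 22 genes of mRNA turnover and feedback, 20 were tested, and Si-FIBP#1 gave 6 rises and 4 falls, Si-FIBP#2 8 rises and 3 falls (medians 0.11 and 0.15). With Si-FIBP#1 the shares of 6 and 4 in 20 lay near those of all genes (27.8% and 19.9%), and with Si-FIBP#2 those of 8 and 3 in 20 stood against 31.1% and 17.7%. The 4 falls with Si-FIBP#1 were 2 without Scramble replicate 1 and without Si-FIBP#1 replicate 1 or 2. HNRNPD, which encodes the AU-rich element binding protein AUF1, went from 335 ± 16.1 FPKM to 129 ± 12.1 and 149 ± 34.2 FPKM. ZFP36L2, another such protein, went from 10.4 to 5.12 and 5.17 FPKM. DUSP5, a nuclear ERK phosphatase, rose from 28.4 ± 2.38 FPKM to 40.0 ± 1.37 and 70.0 ± 6.13 FPKM. DUSP6, its cytoplasmic counterpart, was at 23.9, 16.7 and 28.8 FPKM.

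Among 25 other bZIP genes, only some of whose proteins can pair with AP-1 or with small Maf proteins, 17 were tested. Si-FIBP#1 gave 3 rises and 6 falls, and Si-FIBP#2 2 rises and 6 falls. The medians were -0.22 and -0.13. The falls were 35.3% of the genes tested with each siRNA, against 19.9% and 17.7% of all genes, and the rises 17.6% and 11.8%, against 27.8% and 31.1%. With a sample left out, the 6 falls with Si-FIBP#2 ran from 4 to 7. They were 4 without Scramble replicate 1 or 3 and without Si-FIBP#2 replicate 3. CREM, a CREB-like factor, rose from 28.4 ± 0.894 FPKM to 58.2 ± 2.74 and 63.1 ± 12.2 FPKM (log2 fold changes 1.01 and 1.11, limma, adjusted p = 7.8e-05 and 4.5e-05). ATF4, the main factor of the integrated stress response, went from 128 to 75.6 and 88.6 FPKM, while ATF6 rose from 6.36 to 10.4 and 10.8 FPKM. DDIT3, a target of ATF4, was at 17.6, 12.8 and 17.6 FPKM, and was higher with Si-FIBP#2 than with Si-FIBP#1 by 0.43 (limma, adjusted p = 0.00312). NFE2L1, a partner of small Maf proteins, was at 72.6, 90.3 and 70.1 FPKM.

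Of 36 genes known as AP-1 targets, 23 were tested. With Si-FIBP#1, 11 fell and 4 rose, and with Si-FIBP#2, 7 fell and 5 rose, with medians of -0.19 and 0.00. Without Si-FIBP#1 replicate 3 the first median was -0.30, and with a sample left out the second ran from -0.05 to 0.05. The shares that fell were 47.8% and 30.4%, against 19.9% and 17.7% of all genes, and those that rose 17.4% and 21.7%, against 27.8% and 31.1%. CAV1 (caveolin-1) went from 137 ± 3.47 FPKM to 42.1 ± 4.13 and 29.9 ± 5.23 FPKM, and the metallothionein MT2A from 2700 to 637 and 988 FPKM. PLAU, which encodes urokinase, went from 217 ± 8.51 FPKM to 98.5 ± 10.7 and 92.7 ± 11.6 FPKM (log2 fold changes -1.14 and -1.23, limma, adjusted p = 1.5e-05 and 1.1e-05). Targets thus moved in both directions, and whether AP-1 had a part in any of these changes was not tested.

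The genes whose levels ran most closely with each AP-1 gene over the 9 samples were found by Pearson correlation of log2(FPKM + 1), as a description, since the 3 samples of a group share their treatment. For FOS they were MBOAT1 (0.985) and COPS3 (0.982), and for MAFF TMEM185B (0.995) and BPNT2 (0.994). For FOSL1 they were ILF2 (0.991) and SHCBP1 (0.989), and for MAFK DLX2 (0.986) and MRPL42 (0.985). JUN was closest to CD59 (0.987) and CALM3 (0.986), and FOSL2 to BMT2 (0.989) and CA13 (0.987). For ATF3 they were RAD1 (0.995) and AGER (0.965), for FOSB AC005261.1 (0.988) and PPM1A (0.967), and for JUND AL031282.2 (0.974) and HDLBP (0.964). JUNB, which was called in no comparison, had the lowest values, with PCNX3 at 0.927 and RGS19 at 0.925. None of the 20 was itself an AP-1 gene.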

How the data were processed

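RNA-seq was performed on poly(A)-selected RNA of H1299 cells, read from both ends. Per the labels, HISAT2 and StringTie were used, while their settings, the genome build and the strand setting are not given in the sources used here. The authors deposited 1 table per sample with a value per transcript, for 244443 transcripts including 14956 assembled ones. The headers name only the sample. The deposited values, rounded to 2 decimals, were taken as FPKM because their plain sums differ between samples (781058 to 818104) while their length-weighted sums are nearly constant (1204880 to 1232693).

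FPKM values were summed over the transcripts of each gene. Genes that reached 1 FPKM in 3 or more of the 9 samples (14985) were tested on log2(FPKM + 1) with limma 3.58.1 in R 4.3.3 (mean-variance trend), in 1 fit over all samples with Benjamini-Hochberg adjustment. This scale understates fold changes of low genes. The study's thresholds (2-fold, adjusted p below 0.05) and the adjusted p alone were used. Figures and sums were made with Python 3.11.15. The fit was tested on simulated data. The members and lists were chosen with earlier results of these data known. From each list, up to 3 genes called with both siRNAs in 1 direction (largest mean change) and up to 2 called between the siRNAs were named, and for each member the 2 most correlated genes. MAFG was named besides, as a further small Maf gene. A few genes that this rule or the marker lists name are not reported here. No columns of other samples were used. Alternatives covered pseudocount, filter, scaling, samples fitted, variance trend, assembled transcripts, replicate block and each sample left out.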

Additional observations from a re-analysis of the deposited data

Results flagged for a closer look

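A difference between the 2 FIBP siRNAs was found for 4 AP-1 genes (limma, adjusted p below 0.05 for Si-FIBP#2 against Si-FIBP#1). FOS was 0.69 higher with Si-FIBP#2 on the log2 scale, MAFF 0.50, JUN 0.60 and FOSL2 0.24. The difference of FOSL2 kept its call in only 5 of 18 alternatives. FOS and MAFF were below Scramble with both siRNAs, and FOSL2 was above it with both. JUN was below it with Si-FIBP#1 and above it with Si-FIBP#2. The call of that JUN rise was lost with median ratio scaling (0.18, limma, adjusted p = 0.0684). FIBP was at 6.52 ± 1.93 and 7.09 ± 1.15 FPKM (SD, n = 3) with Si-FIBP#1 and Si-FIBP#2. The cause of these differences was not tested. Groups of 3 samples were not tested for outlying samples.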

How the results depend on the processing

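Over 18 alternatives, the AP-1 genes called with Si-FIBP#1 numbered 6 to 9, those with Si-FIBP#2 6 to 7, and those between the siRNAs 3 to 6. For single genes, 492 of the alternative values kept direction and call, 23 lost the call, 4 gained it and 12 changed sign. FOS, FOSL1, MAFF and MAFK kept their falls with both siRNAs, and FOSB, JUN and ATF3 theirs with Si-FIBP#1, in every alternative that tested them. With a filter of 5 FPKM, FOS, FOSB and ATF3 were not tested, and 1 gene, MAFF, passed 2-fold with Si-FIBP#1; with a sample left out, 1 to 2 genes did, and with a pseudocount of 0.1, 3 genes did (FOS, FOSB at -1.13 and MAFF). Sign changes were seen only where the change was near 0. With a sample left out, JUNB ranged from -0.09 to 0.01 with Si-FIBP#1, and between the siRNAs JUND ranged from -0.04 to 0.03 and MAFK from -0.04 to 0.05. Between the siRNAs, JUND was also at 0.03 when every sample was scaled to the same sum and 0.07 without assembled transcripts, and MAFK at -0.04 with median ratio scaling. Over all genes, the 2-fold counts were 1498, 1411 and 172 with a pseudocount of 0.1, against 848, 757 and 84 with 1. Between the siRNAs, 128 genes passed 2-fold without Si-FIBP#2 replicate 2. The 2304 genes that differed there were 1357 without Si-FIBP#1 replicate 1, 1354 without Si-FIBP#1 replicate 2, 1476 without Si-FIBP#2 replicate 1 and 1268 without Si-FIBP#2 replicate 3. Samples of different groups with the same number correlated at -0.0568 to 0.103 in their deviations from the group means. Those with other numbers correlated at -0.142 to 0.049, a range that overlaps but reaches less high. The labels state no pairing, and the numbers were not taken as pairs in the main fit. With a replicate block, 9, 7 and 3 AP-1 genes were called, and 7081, 7287 and 2177 of all genes (7146, 7309 and 2304 without it), with only FOSL2 between the siRNAs losing its call among the AP-1 genes. The tables hold no counts, so the depth behind low values such as FOSB and ATF3 is an estimate.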
